A study of Mus musculus with 12 samples.

Results

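The comparison was between LM1 and LM9, a pair of mouse mammary cancer cell lines grown from separate lung metastases, with 3 RNA-seq libraries of tumourspheres from each. These were the 6 libraries titled LM1 or LM9 among the 12 libraries of the series, and all 18278 genes listed in each file entered. Both lines descend from HR1, a non-metastatic line from a mammary tumour driven by mutant PIK3CA, which had been given an inducible piggyBac transposon system and injected into the mammary fat pad of immunodeficient mice. Each line is therefore 1 isolate that carries its own transposon insertions, and a difference between them is a difference between 2 isolates. Tumourspheres are clusters that cells form in non-adherent plates. All groups were seeded at 10000 cells per mL and kept for 6 days in serum-free medium with B27, EGF and basic FGF, the growth factors at 20 ng per mL each. The other 6 libraries, LM1 Nfib KO and LM9 Nfib KO, came from oligoclonal pools of the same lines after CRISPR-Cas9 targeting of Nfib, and they were used for the shared estimate of the spread and in the last comparison. The labels do not say whether the replicates of a line were separate cultures, so the p-values measure only the spread between these libraries. Totals ran from 29249075 to 34266053 counts in LM1 and from 30009590 to 31254571 counts in LM9.

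Values are counts relative to the library total (CPM) after scaling with TMM factors, which set the libraries level on the bulk of their genes, and differences are LM9 minus LM1 on the log2 scale, so a negative value is a lower level in LM9. In the accounts of gene lists, levels are means of 3 LM1 libraries and of LM9 replicates 2 and 3, and each log2 difference is given with its standard error (SE). In bulk RNA, fewer cells of a type and less RNA per cell cannot be told apart. Adjusted p-values are from limma-voom with Benjamini-Hochberg adjustment over all genes tested, and a gene was called at an adjusted p under 0.05. Metastasis is the growth of cancer cells at a distant site, and lines isolated from it can differ in epithelial and mesenchymal character, in the matrix they secrete and in the signals they send to vessels and immune cells. NFIB, the factor the study followed, belongs to the nuclear factor I family of transcription factors (NFIA, NFIB, NFIC and NFIX), which bind DNA as dimers. ERO1A, encoded by Ero1l, is an oxidase of the endoplasmic reticulum that passes electrons from protein disulfide isomerase to oxygen, and VEGFA is the main growth factor of blood vessels.

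LM9 replicate 1 stood apart from the other two libraries of its line. LM9 replicate 1 had correlations of 0.993 to 0.994 (Pearson's r of log2 CPM across genes) with the 3 LM1 libraries, against 0.966 to 0.968 with LM9 replicates 2 and 3. The 3 LM1 libraries had correlations of 0.993 to 0.994 with each other, and LM9 replicates 2 and 3 one of 0.991. The root mean square of its log2 differences from an LM1 library was 0.406 to 0.422, which lay below or within the range of 0.417 to 0.432 between LM1 libraries, while from LM9 replicates 2 and 3 it was 0.938 to 0.976. Fitted as a group of its own, LM9 replicate 1 gave 0 genes called against LM1 by limma-voom (0% of 18176 tested, 547 at an unadjusted p under 0.05) and 10453 genes called against LM9 replicates 2 and 3. With 1 library in that group, its spread was taken from the other groups, and the fit describes the same values again and is no separate support. LM9 replicate 1 is given on its own for the genes shown library by library, and the counts of genes called are given with it and without it. The gene lists are given without it, and with it kept Anpep was the 1 list member called. The decision to leave it out was made from its values, so the comparison without it is conditional on that choice, and whether the library holds LM1 or LM9 material was not tested.

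Gene by gene, LM9 replicate 1 lay beside LM1, which restates the values it was set aside for. Among 1054 genes called without it, with an absolute log2 difference above 1 and a mean of at least 10 CPM, its level was placed on a linear scale on which the LM1 mean is 0 and the mean of LM9 replicates 2 and 3 is 1. The median place was 0.0186, the quartiles were -0.0117 and 0.0571, and 1 gene lay past 0.5. For 721 of these genes the value was inside the range of the 3 LM1 libraries. It lay outside that range on the side of LM9 for 238 genes and on the other side for 95.

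**Figure D1:**
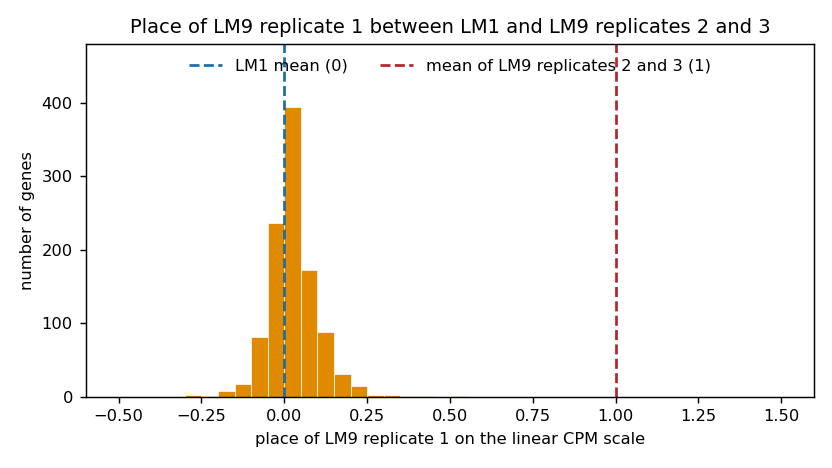
The x axis is the place of LM9 replicate 1 on the linear CPM scale, from 0 at the LM1 mean to 1 at the mean of LM9 replicates 2 and 3, and the y axis is the number of genes in bins of 0.05. The 1054 genes pile up beside 0, with a median of 0.0186, and 1 gene lies past 0.5.

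As labelled, with 3 LM9 libraries, the lines differed in 1 gene of 18176 tested (0.0055%). That gene was Anpep, aminopeptidase N, a peptidase of the cell surface (ENSMUSG00000039062, minus strand of chromosome 7 from 79821803 to 79861059, mm10). It had 0.567, 0.46 and 0.578 CPM in LM1, 0.0675 CPM in LM9 replicate 1, and 0.121 and 0.0787 CPM in LM9 replicates 2 and 3 (log2 difference -2.38, SE 0.27, adjusted p = 0.0397). The 3 LM9 libraries lay below the 3 LM1 libraries, at 2 or 3 counts each against 15 or 16. Against a floor of 3 counts per library, which covers counting error only, the level in LM9 replicates 2 and 3 was at least 4.43-fold lower than the LM1 mean. The count of 1 sat at the edge of the threshold: 8661 genes had an unadjusted p under 0.05, and 5464 had an adjusted p under 0.06. Anpep was at 252 CPM in LM1 Nfib KO and 249 CPM in LM9 Nfib KO, and those libraries entered the shared estimate of the spread. The fit of only the LM1 and LM9 libraries called 0 genes.

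Without LM9 replicate 1, 11995 of 18246 genes were called (65.7%), of which 5904 were higher in LM9 (32.4% of those tested) and 6091 lower (33.4%). The median absolute log2 difference was 0.49, and 3389 genes (18.6%) were called with an absolute log2 difference above 1, 1333 higher and 2056 lower. The 100 highest genes took 26.1% and 25.8% of the counts in LM9 replicates 2 and 3, against 21.3% to 21.6% in LM1 and 21.6% in LM9 replicate 1, and the TMM factors were 0.827 and 0.822 against 0.946 to 0.952 and 0.949. Scaling by total counts instead of TMM factors moved the median of all genes by -0.20 and turned the split to 4126 higher and 7823 lower. The direction of small differences therefore depended on the scaling. Each list below is read against the median of all genes, which was 0.02. The 31 lists held 895 genes tested, and 43 listed symbols, such as Krt5, Cldn7 and Acta2, were not analysed here.

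The difference between the lines also moved with the length of the gene. The median log2 difference was 0.54 for the 1382 genes with at most 500 bases of exon and fell to -0.40 for the 2382 genes with more than 8000 bases (Spearman's rho -0.37 across 18236 genes, as a description). Genes called higher with a log2 difference above 1 had a median of 1650 bases of exon, and genes called lower by over 1 had 4592.5 bases. Against the mean of the other LM1 libraries, the deviations of the LM1 libraries correlated with length at -0.234, 0.0758 and 0.189 and those of LM9 replicate 1 at -0.113, while LM9 replicates 2 and 3 stood at -0.405 and -0.363. The length trend and the difference between the lines lay in the same 2 libraries and cannot be told apart. Each list is therefore also given after a smooth trend of length and GC content was removed from each library, a fit in which 11621 genes were called (63.7%), 6459 higher and 5162 lower with a median of 0.068.

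**Figure D2:**
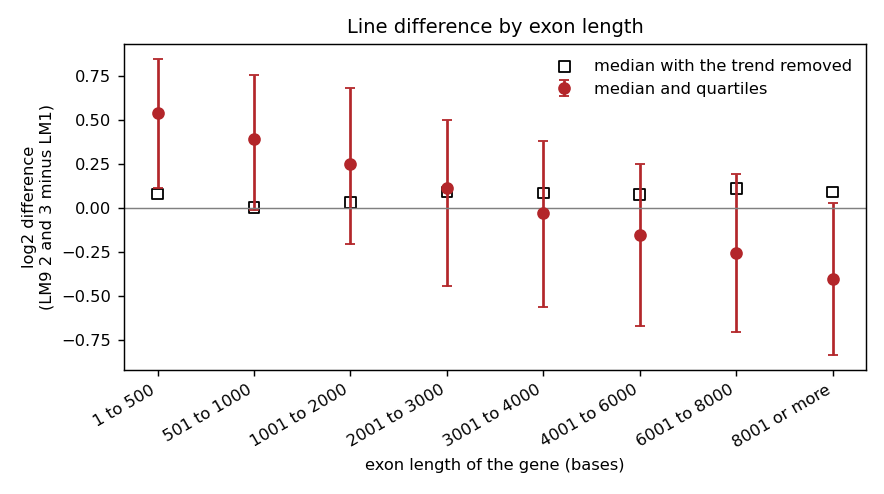
The x axis is the exon length of the gene in bases and the y axis the log2 difference of LM9 replicates 2 and 3 minus LM1. Filled points are medians with bars to the quartiles, which fall from 0.54 to -0.40 with length, and open squares are the medians after the trend was removed, all between 0.0043 and 0.11.

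The genes named first had the largest differences among protein-coding genes with a mean of at least 10 CPM. They are given first for genes lower in LM9 replicates 2 and 3 and then for genes higher there. Postn, which encodes periostin, a matrix protein of metastatic niches, led the lower genes (ENSMUSG00000027750, plus strand of chromosome 3 from 54361109 to 54391037). It was at 185, 207 and 189 CPM in LM1, 197 CPM in LM9 replicate 1, and 0.282 and 0.157 CPM in LM9 replicates 2 and 3 (log2 difference -9.71, SE 0.47, adjusted p = 1.58e-11). LM9 replicates 2 and 3 were down to 7 and 4 reads in the whole library, while LM9 replicate 1 was level with LM1. Trp63, the p63 transcription factor of basal epithelial cells (ENSMUSG00000022510, plus strand of chromosome 16 from 25683763 to 25892102), had 15.8, 19 and 16.4 CPM in LM1, 17.9 CPM in LM9 replicate 1, and 0.0403 and 0.276 CPM in LM9 replicates 2 and 3 (log2 difference -7.0, SE 0.59, adjusted p = 1.77e-08). The size rests on 1 and 7 counts, and was -5.86 without LM9 replicate 2 and -8.15 without LM9 replicate 3. The libraries fell into the same 2 sets for Slc6a2, the noradrenaline transporter, with 23.5, 24.8 and 23 CPM in LM1, 22.5 CPM in LM9 replicate 1, and 0.282 and 0.827 CPM in LM9 replicates 2 and 3 (log2 difference -5.55, SE 0.32, adjusted p = 1.50e-10), and the difference was -4.82 without LM9 replicate 2 and -6.3 without LM9 replicate 3. Then came Megf9, a membrane protein with EGF-like repeats (log2 -5.25, SE 0.33), Gprin3 (log2 -4.53, SE 0.30), the receptor Ror1, which binds WNT5A (log2 -4.35, SE 0.20), the matricellular protein Ccn4 (log2 -4.02, SE 0.23) and Bmf, a pro-apoptotic member of the BCL2 family (log2 -3.75, SE 0.18). Their means went from 30.3 to 0.798 CPM for Megf9, from 29 to 1.41 CPM for Ror1 and from 42.6 to 3.16 CPM for Bmf. In all 8 genes the LM1 libraries and LM9 replicate 1 lay together, clear of LM9 replicates 2 and 3.

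Among genes higher in LM9 replicates 2 and 3, the largest differences by the same ranking were at a cluster of leukocyte immunoglobulin-like receptor genes on chromosome 10. Lilrb4a had 0.319, 0.215 and 0.217 CPM in LM1, 0.304 CPM in LM9 replicate 1, and 48.8 and 47 CPM in LM9 replicates 2 and 3 (log2 difference 7.51, SE 0.27, adjusted p = 5.04e-13). Its neighbour Lilr4b had 0.319, 0.092 and 0.0361 CPM in LM1, 0.236 CPM in LM9 replicate 1, and 36.7 and 30.2 CPM in LM9 replicates 2 and 3 (log2 difference 8.06, SE 0.51, adjusted p = 4.79e-10). The LM1 level of Lilr4b rests on 9, 3 and 1 counts. The difference was 8.745 without LM1 replicate 1 and 7.489 without LM1 replicate 3. Gm49339 overlaps Lilrb4a and Lilr4b and had a log2 difference of 7.5, so the values of these 3 genes share reads and count as 1 locus rather than 3. Lilrb4a encodes a receptor that carries inhibitory signals in myeloid cells. Chil1 encodes a secreted chitinase-like protein that binds chitin without cutting it (ENSMUSG00000064246, plus strand of chromosome 1 from 134182176 to 134190181). It was at 67, 62.3 and 63.6 CPM in LM1, 61.2 CPM in LM9 replicate 1, and 1161 and 1178 CPM in LM9 replicates 2 and 3, a 18.2-fold higher level (log2 difference 4.19, SE 0.04, adjusted p = 5.46e-20). LM9 replicates 2 and 3 were close to each other and far outside the other 4 libraries. Itgb7, the beta-7 integrin chain, had 4.86, 3.95 and 4.41 CPM in LM1, 4.39 CPM in LM9 replicate 1, and 45.6 and 46.8 CPM in LM9 replicates 2 and 3 (log2 difference 3.4, SE 0.09, adjusted p = 1.14e-14). The small GTPase gene Rhov went from 5.05 to 42.6 CPM (log2 3.08, SE 0.09), the inducible heat shock protein 70 gene Hspa1a from 10.3 to 80.5 CPM (log2 2.98, SE 0.11), and Ngfr, the low-affinity neurotrophin receptor, from 9.03 to 68.9 CPM (log2 2.93, SE 0.07). Hspa1a has a near-identical neighbour, Hspa1b, so its value is uncertain. LM9 replicate 1 had 5.53 CPM of Rhov, 11.9 CPM of Hspa1a and 10.3 CPM of Ngfr, in each case just above the highest LM1 library and far below the other LM9 libraries.

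**Figure D3:**
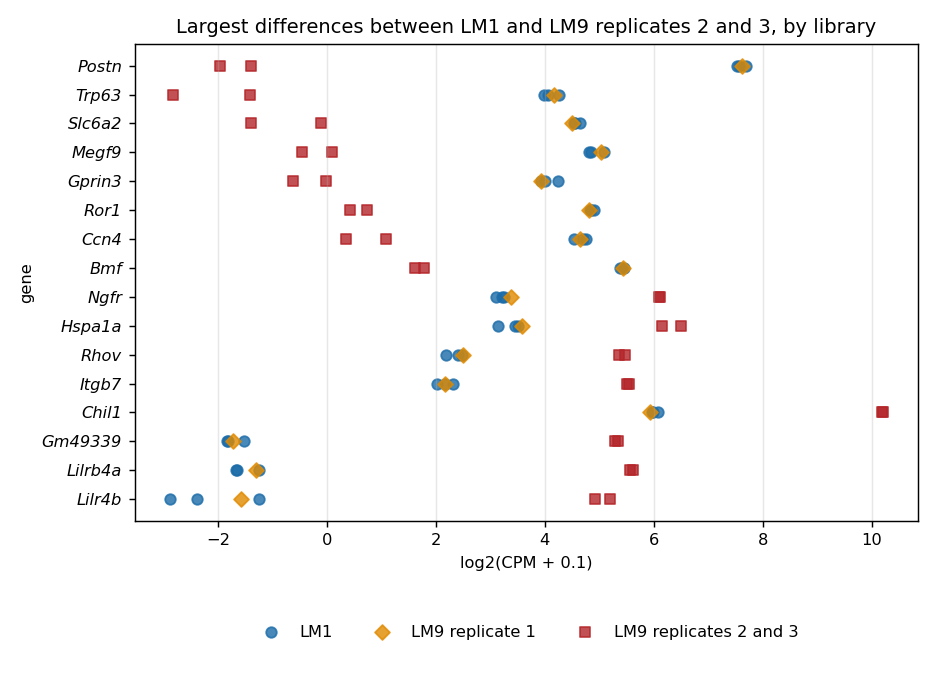
The x axis is the level as log2(CPM + 0.1) and each row is a gene, with circles for the 3 LM1 libraries, a diamond for LM9 replicate 1 and squares for LM9 replicates 2 and 3. For all 16 genes the diamond lies with the circles, and the squares lie apart, below them for Postn to Bmf and above them for Ngfr to Lilr4b.

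All 3 LM9 libraries lay above all 3 LM1 libraries for 1530 genes (8.42% of 18176 tested) and below them for 1558 (8.57%). Without LM9 replicate 1, 65.7% of genes were called, so these counts by themselves say nothing of LM9 replicate 1. Of these, with a mean of at least 10 CPM, the largest fitted differences as labelled were those of Rhov, Hspa1a, Ngfr, Krt19 and Cx3cr1 upwards and of Slc6a2, Gprin3, Ror1, Dcn and Cxcl5 downwards. Cx3cr1, the fractalkine receptor, had 7.59, 8.55 and 8.64 CPM in LM1, 9.04 CPM in LM9 replicate 1, and 44.6 and 37.6 CPM in LM9 replicates 2 and 3. Dcn, the matrix proteoglycan decorin, had 91.5, 94.8 and 85.8 CPM in LM1, 84.4 CPM in LM9 replicate 1, and 15.7 and 15.1 CPM in LM9 replicates 2 and 3. As labelled, neither passed the threshold (adjusted p = 0.0552 for Cx3cr1 and 0.0543 for Dcn). The step from LM1 to LM9 replicate 1 was small beside the step to the other LM9 libraries in both.

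The genes the study followed, and the other genes of the NFI family, differed modestly. Nfib was at 196, 217 and 241 CPM in LM1, 210.3 CPM in LM9 replicate 1, and 119.6 and 133 CPM in LM9 replicates 2 and 3, a lower level there (log2 difference -0.78, SE 0.07, adjusted p = 4.74e-08). With LM9 replicate 1 kept, the difference was -0.53 and did not pass the threshold (adjusted p = 0.0543). Nfia (log2 -0.68, SE 0.07) and Nfix (log2 -0.48, SE 0.06) were lower too, and for Nfic the log2 difference was 0.09 (adjusted p = 0.166). These 3 lower genes have long transcripts. With the length and GC trend removed, their log2 differences were -0.19 for Nfib, -0.14 for Nfia and -0.21 for Nfix, and all 3 were still called, while Nfic was then called higher (0.33, adjusted p = 5.28e-07 by limma-voom). Ero1l ran the other way, at 1089, 1192 and 1143 CPM in LM1, 1121 CPM in LM9 replicate 1, and 1426 and 1460.4 CPM in LM9 replicates 2 and 3 (log2 difference 0.34, SE 0.03, adjusted p = 1.16e-07), with a log2 difference of 0.71 with the trend removed and 0.14 by total counts. Vegfa was at 526, 514 and 524 CPM in LM1, 532 CPM in LM9 replicate 1, and 911 and 873 CPM in LM9 replicates 2 and 3 (log2 difference 0.77, SE 0.03, adjusted p = 3.71e-13), and its 2 higher libraries were clear of the other 4. Hif1a, the oxygen-regulated subunit of the hypoxia-inducible factor, was lower (log2 -0.37, SE 0.05), but with the trend removed it was at 0.048 and not called. Foxp1, a forkhead transcription factor that was another hit of the transposon screen, had a log2 difference of -0.08 (adjusted p = 0.199), and was called higher, at 0.47, with the trend removed and lower, at -0.28, by total counts. Lrch3, also a hit of the screen, was lower (log2 -0.74, SE 0.05). Of the 10 genes in the list of study and transposon-screen genes, 2 were higher and 6 lower (median -0.42), or 4 higher and 5 lower with the trend removed (median -0.046) and 2 and 7 by total counts.

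**Figure D4:**
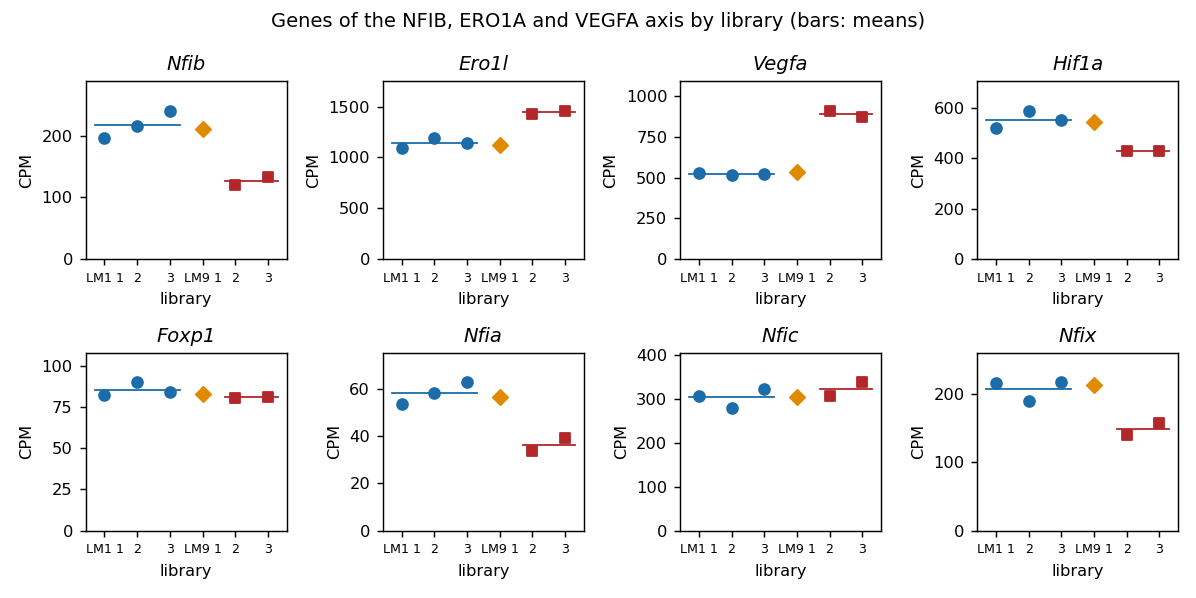
Each panel gives 1 gene, with the 6 libraries on the x axis and CPM from 0 on the y axis, circles for LM1, a diamond for LM9 replicate 1, squares for LM9 replicates 2 and 3 and lines at the means of LM1 and of LM9 replicates 2 and 3. Vegfa and Ero1l are higher in the squares, Nfib, Nfia, Nfix and Hif1a are lower, and the diamond stays beside the circles.

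Epithelial genes were mostly higher in LM9 replicates 2 and 3. Of 23 genes for keratins, junction proteins and epithelial factors, 17 were higher and 4 lower, with a median log2 difference of 0.62 (0.77 with the trend removed, 0.61 with genes at the floor left out or set at their bound). By total counts 13 were higher and 5 lower. Among the 17, Krt17 had at most 3 counts in all 5 libraries and is not read as higher. Krt19, a keratin of simple epithelia, had 8.54, 7.69 and 7.26 CPM in LM1, 9.24 CPM in LM9 replicate 1, and 46 and 45.3 CPM in LM9 replicates 2 and 3 (log2 difference 2.54, SE 0.07, adjusted p = 1.49e-14). The claudins, which seal tight junctions, were both higher, Cldn4 from 27.4 to 152 CPM (log2 2.48, SE 0.06) and Cldn3 from 34.1 to 129 CPM (log2 1.94, SE 0.09). Krt7 (log2 1.63, SE 0.07), Krt8 (log2 0.95, SE 0.04) and Krt18 (log2 0.62, SE 0.04) were higher as well. Cdh1, the E-cadherin of adherens junctions, rose from 11.3 to 27.4 CPM (log2 1.27, SE 0.08), and Epcam from 54.6 to 82.3 CPM (log2 0.59, SE 0.04). The exceptions were Trp63, described above, Esrp2, an epithelial splicing regulator (log2 -1.57, SE 0.28), the epithelial factor Ehf (log2 -0.25, SE 0.04, but called higher, at 0.11, with the trend removed) and Lcn2, which encodes the iron-binding protein lipocalin 2 (log2 -0.11, SE 0.02).

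Snai1, whose product binds E-box letters in promoters of epithelial genes and lowers their transcription, was higher in the same libraries, at 96.6, 78.7 and 90.9 CPM in LM1, 91.2 CPM in LM9 replicate 1, and 266 and 263 CPM in LM9 replicates 2 and 3 (log2 difference 1.58, SE 0.06, adjusted p = 1.07e-12). The promoters of the epithelial genes were searched for the E-box CACCTG on both strands, so that it also reads CAGGTG. RefSeq promoter windows of 300 bases run from 250 before the start to 50 after it (GRCm38.p6, the assembly of mm10). They were given for 13 of the 17 genes called higher, the 17 including Krt17. Of these 13, 10 held the E-box, against 20.2% of all 32851 windows. For the members that were not higher, 2 of 6 had a window, and 0 of these held it. With only 2 windows on that side, the E-box cannot be tied to the direction of the difference. A match is a description of letters and not a bound site, and a part of Snai1 in these genes was not tested. The windows of 4 higher genes are shown, because they hold this motif, from 5′ to 3′ on the strand of the gene, with the E-box in capitals. They are chr5:134946885-134947184 (minus strand) for Cldn4, chr17:87635729-87636028 (plus strand) for Epcam, chr15:101412153-101412452 (plus strand) for Krt7 and chr15:102004293-102004592 (minus strand) for Krt8.
Cldn4: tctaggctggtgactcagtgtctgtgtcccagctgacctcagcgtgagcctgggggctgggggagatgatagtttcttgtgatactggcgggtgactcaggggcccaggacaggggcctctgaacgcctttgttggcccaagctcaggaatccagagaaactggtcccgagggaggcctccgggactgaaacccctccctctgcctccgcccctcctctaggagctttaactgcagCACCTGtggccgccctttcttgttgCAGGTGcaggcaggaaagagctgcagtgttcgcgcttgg
Epcam: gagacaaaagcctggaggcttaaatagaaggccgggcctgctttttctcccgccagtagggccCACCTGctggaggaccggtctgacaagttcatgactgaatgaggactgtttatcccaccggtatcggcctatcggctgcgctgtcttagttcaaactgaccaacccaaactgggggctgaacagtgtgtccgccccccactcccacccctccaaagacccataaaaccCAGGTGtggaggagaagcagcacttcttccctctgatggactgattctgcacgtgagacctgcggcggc
Krt7: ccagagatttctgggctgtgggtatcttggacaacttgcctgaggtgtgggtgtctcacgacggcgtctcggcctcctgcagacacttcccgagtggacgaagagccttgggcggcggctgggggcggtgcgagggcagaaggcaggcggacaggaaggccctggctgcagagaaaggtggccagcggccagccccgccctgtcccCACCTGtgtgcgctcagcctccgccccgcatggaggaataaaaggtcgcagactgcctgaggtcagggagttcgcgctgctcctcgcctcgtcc
Krt8: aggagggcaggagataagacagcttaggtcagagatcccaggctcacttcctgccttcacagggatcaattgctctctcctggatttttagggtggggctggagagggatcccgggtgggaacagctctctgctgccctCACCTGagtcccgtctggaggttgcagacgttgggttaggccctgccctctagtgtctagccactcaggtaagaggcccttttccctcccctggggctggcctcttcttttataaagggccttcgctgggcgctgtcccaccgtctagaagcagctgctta

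Mesenchymal genes did not move as 1 group. Of 18 tested, 6 were higher and 7 lower, and 4 had at most 3 counts in all 5 libraries, among them the E-cadherin repressor gene Snai2 and the N-cadherin gene Cdh2. Vim, which encodes the intermediate filament vimentin, was higher (3099 to 5506 CPM, log2 0.83, SE 0.03), as were Twist1 (log2 0.89, SE 0.06) and the galectin gene Lgals1 (log2 0.95, SE 0.03). Zeb2, another repressor of epithelial genes, was lower (86.2 to 55.5 CPM, log2 -0.64, SE 0.06, 0.10 and not called with the trend removed), and so was Foxc2 (log2 -1.46, SE 0.15). The median was 0.09, or -0.025 with genes at the floor left out or set at their bound, -0.11 by total counts and 0.23 with the trend removed, where 7 were higher and 4 lower. Snai1, Twist1 and Vim were higher in the same libraries as the keratins and claudins.

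Matrix genes differed in both directions. Of 39 matrix genes, 15 were higher and 18 lower, with a median of -0.30, or -0.075 with genes at the floor set at their bound. With the trend removed, 18 were higher and 16 lower, with a median of -0.081, and by total counts 10 and 19, with a median of -0.50. Beside Postn and Dcn, the lower genes included those of type VI collagen, which forms beaded filaments. Col6a1 went from 733 to 358 CPM (log2 -1.03, SE 0.03) and Col6a2 from 32.7 to 6.01 CPM (log2 -2.44, SE 0.09). Col1a1 (log2 -1.73, SE 0.20), Thbs2 (log2 -1.76, SE 0.23) and Ccn2 (log2 -1.18, SE 0.07) were also lower. Of the basement membrane genes, the laminin genes Lama3 (from 1.46 to 17.9 CPM, log2 3.6, SE 0.13) and Lamb3 (from 261 to 566 CPM, log2 1.12, SE 0.04) were higher. Lama4 (log2 1.26, SE 0.04), Lama5 (log2 0.39, SE 0.08), Hspg2, which encodes perlecan (log2 0.62, SE 0.14), and the collagen IV gene Col4a6 (0.26 to 3.84 CPM, log2 3.82, SE 0.34) rose as well, while Col4a2 was lower (log2 -0.31, SE 0.05), a call lost with the trend removed.

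Proteases, peptidases and inhibitors gave 12 higher and 19 lower of 39 tested, with a median of -0.33, or -0.20 with genes at the floor set at their bound. With the trend removed 12 were higher and 17 lower (median -0.089), and by total counts 9 and 23 (median -0.53). Mmp2 and Mmp9, which cut collagen IV and denatured collagens, went in opposite directions. Mmp2 had 8.65, 10.4 and 8.46 CPM in LM1, 10.4 CPM in LM9 replicate 1, and 0.363 and 0.433 CPM in LM9 replicates 2 and 3 (log2 difference -4.46, SE 0.32, adjusted p = 2.52e-09). Mmp9 had 626, 579 and 600.3 CPM in LM1, 626 CPM in LM9 replicate 1, and 1757 and 1819 CPM in LM9 replicates 2 and 3 (log2 difference 1.57, SE 0.03, adjusted p = 1.36e-15). LM9 replicate 1 was with LM1 for both. Membrane-bound Mmp14 (log2 -0.66, SE 0.04) and the sheddases Adam10 (log2 -1.06, SE 0.07), Adam17 (log2 -0.75, SE 0.04) and Adam19 (log2 -2.04, SE 0.17) were lower. Plaur, the urokinase receptor, was higher (31.9 to 85.8 CPM, log2 1.43, SE 0.06), with the inhibitors Timp1 (log2 0.98, SE 0.06) and Serpine2 (log2 0.75, SE 0.03). Among 26 integrins and adhesion receptors, 11 were higher and 10 lower (9 and 11 by total counts, 15 and 7 with the trend removed), and the median went from 0.10 to 0.34 with the trend removed. The collagen-binding integrin chains Itga1 (log2 -1.27, SE 0.05) and Itga2 (log2 -1.59, SE 0.07) and the leukocyte adhesion receptor Vcam1 (log2 -1.4, SE 0.04) fell, and Icam1 rose from 1.68 to 21.9 CPM (log2 3.69, SE 0.15).

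The counts of the TGF-beta and BMP, Notch and Wnt, and PDGF signalling lists depended on the length and GC trend. For TGF-beta and BMP, 6 of 30 were higher and 17 lower (median -0.36, or -0.43 with genes at the floor left out), and 9 were higher and 13 lower with the trend removed (median -0.15), and 6 and 20 by total counts. The receptors Tgfbr1 (log2 -1.03, SE 0.07), Tgfbr2 (log2 -1.48, SE 0.05) and Bmpr1a (log2 -1.0, SE 0.06) were lower, and so were the activin subunits Inhba (15.6 to 4.1 CPM, log2 -1.93, SE 0.17) and Inhbb (5.24 to 0.295 CPM, log2 -5.54, SE 0.80). The fitted difference of Inhbb is larger than its means imply and its SE is wide, so its size is uncertain. Id1, Id3 and Smad7, which these signals are known to induce, were higher. Id3 was at 28.6, 24.5 and 26.5 CPM in LM1, 26.1 CPM in LM9 replicate 1, and 203 and 188 CPM in LM9 replicates 2 and 3 (log2 difference 2.89, SE 0.06, adjusted p = 2.03e-15), and values for Id1 (log2 1.54, SE 0.07) and the inhibitory Smad7 (log2 1.18, SE 0.06) were smaller. Tgfb1 was higher (log2 0.97, SE 0.05) and Tgfb3 lower (log2 -1.61, SE 0.05).

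In the Notch and Wnt list, 8 of 33 were higher and 17 lower (median -0.30), or 10 and 12 with the trend removed (median -0.11) and 5 and 18 by total counts. Notch3 had 35.9, 32.7 and 36.2 CPM in LM1, 36 CPM in LM9 replicate 1, and 3.59 and 3.42 CPM in LM9 replicates 2 and 3 (log2 difference -3.31, SE 0.13, adjusted p = 1.53e-12), and Notch2 went from 232 to 36.9 CPM (log2 -2.66, SE 0.08). Notch1 was lower by a small amount (log2 -0.19, SE 0.07), which turned to 0.24 with the trend removed. The ligand Jag1 (log2 0.89, SE 0.05) and the Notch target Hes1 (35 to 156 CPM, log2 2.16, SE 0.05) were higher. Lef1, a transcription factor of canonical Wnt signalling, was lower (11.2 to 1.58 CPM, log2 -2.84, SE 0.24), as were the receptors Fzd1 (log2 -2.72, SE 0.41) and Fzd6 (log2 -1.76, SE 0.07), while Fzd7 was higher (log2 0.57, SE 0.04).

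Of 26 genes of PI3K, IGF, PDGF and MET signalling, 7 were higher and 14 lower. Pik3ca, the mouse gene for the kinase subunit that was mutant in the original tumours, had 51.7, 54.3 and 55.7 CPM in LM1, 53.6 CPM in LM9 replicate 1, and 14.8 and 14.9 CPM in LM9 replicates 2 and 3 (log2 difference -1.86, SE 0.07, adjusted p = 6.48e-13). According to the study, the mutant form came from a transgene under the CAG promoter. Its level was not measured apart from these counts, so they are not read as the level of the mutant. The regulatory subunit genes Pik3r1 (log2 -1.28, SE 0.06) and Pik3r3 (log2 -1.29, SE 0.15) were lower as well. Pdgfc went from 111 to 22.1 CPM (log2 -2.33, SE 0.05), and Pdgfrb, at or under 3 counts in LM9 replicates 2 and 3, was at least 13.5-fold lower there. The list median was -0.38 (-0.44 with genes at the floor left out or set at their bound), and with the trend removed it was 0.09, with 13 higher and 8 lower, and by total counts 4 were higher and 16 lower. EGF and FGF signalling gave 8 higher and 7 lower of 26 (14 and 6 with the trend removed, 8 and 14 by total counts). Erbb2 fell (19.8 to 4.66 CPM, log2 -2.08, SE 0.13), and Fgfr2 fell (log2 -1.29, SE 0.08), while the EGF receptor ligands Areg (5.89 to 23.9 CPM, log2 2.01, SE 0.10), Hbegf (50.7 to 168 CPM, log2 1.73, SE 0.04) and Nrg1, a ligand of ERBB3 and ERBB4 (log2 1.12, SE 0.09), rose. Egfr itself had a log2 difference of 0.02 (adjusted p = 0.838).

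Angiogenic genes differed in both directions. Of 19 tested, 6 were higher and 11 lower, with a median of -0.26 (-0.25 with the trend removed, -0.22 with genes at the floor left out). Nrp1, a VEGF co-receptor, had 7.73, 9.81 and 9 CPM in LM1, 9.04 CPM in LM9 replicate 1, and 0.484 and 1.02 CPM in LM9 replicates 2 and 3 (log2 difference -3.61, SE 0.31, adjusted p = 2.28e-08). The lymphatic growth factor Vegfc (57.7 to 18 CPM, log2 -1.68, SE 0.07) and the angiopoietins Angpt1 (32 to 5.69 CPM, log2 -2.5, SE 0.14) and Angpt2 (log2 -1.3, SE 0.12) were lower. On the higher side were Vegfa, Flt1, which encodes VEGF receptor 1 (94.9 to 159 CPM, log2 0.74, SE 0.05), Sema3c (log2 1.38, SE 0.06), Pgf (log2 0.33, SE 0.05), Efna1 (log2 0.49, SE 0.05) and Vegfb (log2 0.22, SE 0.05), the last not called with the trend removed.

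Immediate early genes formed the list with the highest median of the 31. All 23 genes of the AP-1, MYC and immediate early list were called, 17 higher and 6 lower, with a median of 1.09 (0.83 with the trend removed, 0.88 by total counts). Junb had 116, 77.2 and 98.3 CPM in LM1, 105 CPM in LM9 replicate 1, and 489 and 452 CPM in LM9 replicates 2 and 3 (log2 difference 2.3, SE 0.09, adjusted p = 2.07e-12). Nr4a1, an orphan nuclear receptor induced within minutes of a stimulus, had 80.5, 75.7 and 83.6 CPM in LM1, 80.4 CPM in LM9 replicate 1, and 355 and 359 CPM in LM9 replicates 2 and 3 (log2 difference 2.16, SE 0.04, adjusted p = 9.78e-16). Myc rose from 111 to 358 CPM (log2 1.69, SE 0.05), and Jun (log2 1.07, SE 0.07), Fos (log2 1.15, SE 0.05), Fosl1 (log2 1.2, SE 0.06), Atf3 (log2 1.25, SE 0.05) and Klf5 (log2 1.31, SE 0.05) were higher too. The lower genes included the early growth response genes Egr2 (4.03 to 1.14 CPM, log2 -1.82, SE 0.24), Egr3 (log2 -1.68, SE 0.28) and Egr1 (log2 -0.39, SE 0.16, not called with the trend removed), with Fosl2 (log2 -1.2, SE 0.04) and Mycl (log2 -1.41, SE 0.15). Of 23 genes around p53 and the CDK inhibitors, 10 were higher and 7 lower (10 and 6 with the trend removed, 9 and 9 by total counts). Among the 7, Gdf15 had at most 3 counts in all 5 libraries and is not read as lower. Plk2, a stress-induced kinase, had 104, 108 and 107 CPM in LM1, 108 CPM in LM9 replicate 1, and 507 and 519 CPM in LM9 replicates 2 and 3 (log2 difference 2.27, SE 0.03, adjusted p = 1.16e-17). Trp53 itself was higher (22.7 to 49.4 CPM, log2 1.13, SE 0.07), with its targets Cdkn1a (log2 1.09, SE 0.05) and Bbc3 (log2 0.98, SE 0.11), while the targets Sesn1 (log2 -1.03, SE 0.06) and Zmat3 (log2 -0.83, SE 0.13) were lower. Mdm2, whose product degrades p53, was slightly higher (log2 0.25, SE 0.04).

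Secreted immune signals differed gene by gene. Of 27 chemokines, interleukins and growth cytokines, 15 were higher and 8 lower (13 and 7 with the trend removed, 10 and 9 by total counts). Cxcl5, a chemokine that draws neutrophils, was at 808, 894 and 811 CPM in LM1, 772 CPM in LM9 replicate 1, and 149 and 152 CPM in LM9 replicates 2 and 3 (log2 difference -2.48, SE 0.05, adjusted p = 1.82e-15). The related Cxcl1 (855 to 463 CPM, log2 -0.89, SE 0.03) was lower too. Csf1, the macrophage growth factor, was lower (log2 -0.81, SE 0.04), while Csf2, which encodes GM-CSF, rose from 3.02 to 22.2 CPM (log2 2.9, SE 0.12) and Csf3, which encodes G-CSF, from 35.4 to 66.4 CPM (log2 0.91, SE 0.07). Ccl5 (36.9 to 115 CPM, log2 1.64, SE 0.05), Ccl2 (log2 1.33, SE 0.05) and Cxcl16 (log2 1.35, SE 0.05) were higher. The fractalkine gene Cx3cl1 was lower (log2 -1.28, SE 0.04) in the libraries where its receptor Cx3cr1 was higher. Il1rn, the antagonist of interleukin-1, was at 3 counts or fewer in each LM1 library and at least 5.86-fold higher in LM9 replicates 2 and 3.

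In the interferon and antigen presentation list, 17 of 32 were higher and 12 lower (17 and 10 with the trend removed, 14 and 15 by total counts). The higher ones included H2-K1 (2194 to 3428 CPM, log2 0.65, SE 0.03), H2-D1 (log2 0.64, SE 0.03), Tap2 (log2 0.81, SE 0.04) and B2m (log2 0.25, SE 0.03), the last not called with the trend removed. Nlrc5, an activator of class I genes, fell (72.2 to 19.5 CPM, log2 -1.89, SE 0.08). Of the interferon-induced members, Irf7 (91.2 to 229 CPM, log2 1.33, SE 0.04), Mx1 (log2 1.32, SE 0.09) and Bst2 (log2 0.88, SE 0.04) were higher and Ifit2 (19.6 to 3.81 CPM, log2 -2.37, SE 0.12), Ifih1 (log2 -1.46, SE 0.08) and Ifit1 (log2 -1.11, SE 0.14) were lower. The H2 genes are closely related to each other, so their separate values are uncertain.

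Hypoxia genes were read beside Hif1a and Vegfa. Outside glycolysis, 15 of 26 were higher and 8 lower, with a median of 0.21 (0.46 with the trend removed). By total counts, the scaling that moved all genes by -0.20, 12 were higher and 11 lower with a median of 0.0088. Hilpda, a lipid droplet protein, had 6.88, 7.66 and 6.9 CPM in LM1, 7.15 CPM in LM9 replicate 1, and 31.4 and 30.4 CPM in LM9 replicates 2 and 3 (log2 difference 2.11, SE 0.08, adjusted p = 4.47e-13). Ddit4, an inhibitor of mTOR signalling, had 323, 281 and 310.3 CPM in LM1, 319 CPM in LM9 replicate 1, and 1042 and 1033 CPM in LM9 replicates 2 and 3 (log2 difference 1.77, SE 0.04, adjusted p = 2.72e-15). Bhlhe40 (log2 1.23, SE 0.03), Ndrg1 (log2 0.93, SE 0.02) and Adm (log2 0.95, SE 0.08) were higher. Car9, a carbonic anhydrase and common marker of hypoxia, was lower (16.7 to 10.3 CPM, log2 -0.69, SE 0.09), with Egln3 (log2 -0.62, SE 0.04), Ak4 (log2 -0.55, SE 0.06) and Ppp1r3c (log2 -2.91, SE 0.44). The promoter windows were searched for the core of the hypoxia response element, spelled ACGTG or GCGTG, on both strands. It was present in 43.8% of all 32851 windows, in 9 of the 11 windows of genes that were higher and in 8 of the 9 windows of members that were not. The windows of the 2 higher genes with the largest difference are shown from 5′ to 3′ on the strand of the gene with the core in capitals, chr10:59951721-59952020 (minus strand) for Ddit4 and chr6:29272238-29272537 (plus strand) for Hilpda, whose first listed window was used.
Ddit4: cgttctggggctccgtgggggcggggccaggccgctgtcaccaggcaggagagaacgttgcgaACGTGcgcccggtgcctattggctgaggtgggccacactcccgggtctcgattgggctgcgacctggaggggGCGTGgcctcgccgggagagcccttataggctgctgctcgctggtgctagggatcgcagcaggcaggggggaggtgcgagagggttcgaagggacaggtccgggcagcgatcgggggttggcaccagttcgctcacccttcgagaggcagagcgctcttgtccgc
Hilpda: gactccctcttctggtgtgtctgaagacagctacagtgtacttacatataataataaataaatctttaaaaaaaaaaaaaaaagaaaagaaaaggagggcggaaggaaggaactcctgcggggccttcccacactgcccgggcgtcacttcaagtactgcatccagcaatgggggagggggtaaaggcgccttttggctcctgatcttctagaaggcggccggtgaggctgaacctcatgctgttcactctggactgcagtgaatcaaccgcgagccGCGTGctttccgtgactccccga

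Glycolysis genes gave 13 higher and 7 lower of 23 (median 0.30), or 14 and 5 with the trend removed and 11 and 8 by total counts. The glucose transporter gene Slc2a1 (229.98 to 425 CPM, log2 0.89, SE 0.04), Pkm (1292 to 2209.8 CPM, log2 0.78, SE 0.03) and Tpi1 (log2 0.77, SE 0.03) were higher. Hk2, an inducible hexokinase, went the other way, at 289, 293 and 290.2 CPM in LM1, 301 CPM in LM9 replicate 1, and 105 and 119 CPM in LM9 replicates 2 and 3 (log2 difference -1.38, SE 0.04, adjusted p = 7.71e-14), while Hk1 was higher (log2 0.44, SE 0.03). Gapdh had a log2 difference of 1.41 at only 15.1 to 40.2 CPM. It has many processed pseudogenes, and how reads with several places in the genome were counted is not given in the sources used here, so this value is uncertain. Of 23 genes of endoplasmic reticulum folding, 13 were higher and 8 lower (median 0.14). With the trend removed 13 were higher and 6 lower (median 0.31), and by total counts 6 and 9 (median -0.065). P4hb, the protein disulfide isomerase that ERO1A oxidises, rose from 1422 to 2561 CPM (log2 0.85, SE 0.02) and the chaperone Hspa5 from 6359.6 to 9178 CPM (log2 0.53, SE 0.02). Xbp1, a transcription factor of the unfolded protein response, was lower, with 249.6, 259.9 and 237 CPM in LM1, 251 CPM in LM9 replicate 1, and 75.5 and 78.4 CPM in LM9 replicates 2 and 3 (log2 difference -1.69, SE 0.05, adjusted p = 2.49e-14). ATF4 targets and serine synthesis gave 11 higher and 4 lower of 22 (13 and 3 with the trend removed, 9 and 5 by total counts), led by Asns, asparagine synthetase (33.5 to 93 CPM, log2 1.47, SE 0.05), with Trib3 (log2 0.95, SE 0.05) and Atf4 itself (log2 0.71, SE 0.03), while Slc7a11, the cystine transporter, was lower (log2 -0.88, SE 0.08).

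Of 28 sterol and fatty acid synthesis genes, 18 were higher and 5 lower (median 0.30), or 22 and 2 with the trend removed (median 0.42) and 13 and 9 by total counts. Nsdhl (log2 1.01, SE 0.06) and Sqle (log2 0.87, SE 0.03), enzymes of cholesterol synthesis, were higher, and the fatty acid elongase gene Elovl6 was lower (143 to 43.4 CPM, log2 -1.72, SE 0.05). In the NRF2, glutathione and pentose phosphate list, 14 of 26 were higher and 10 lower. Prdx6 (205 to 474 CPM, log2 1.21, SE 0.03), Gpx4 (log2 1.02, SE 0.04) and Gpx1 (log2 1.0, SE 0.06) were higher, and Keap1, which holds NRF2 in check, fell from 60.4 to 23.7 CPM (log2 -1.34, SE 0.08) together with the NRF2 targets Srxn1 (log2 -1.03, SE 0.04) and Gclc (log2 -0.65, SE 0.07). Lysosome and autophagy genes gave 16 higher and 9 lower of 29, with Sqstm1 (log2 0.79, SE 0.02) and Npc2 (log2 0.66, SE 0.02) the largest. With the trend removed, lysosome and autophagy genes gave 20 higher and 3 lower and the redox list 14 and 9, and by total counts 11 and 14 and 10 and 12. The median of the lysosome and autophagy list was 0.11, or 0.35 with the trend removed and -0.091 by total counts, and that of the redox list was 0.16, or 0.19 and -0.044.

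All 79 cytosolic ribosomal protein genes were higher, against 32.4% of all genes tested, with a median of 0.66 and a range from 0.14 to 1.46. By total counts 74 were called higher and 0 lower. With the length and GC trend removed, 74 were higher and 3 (Rpl36, Rps3a1 and Rps27) lower, with a median of 0.51. Their median exon length was 1770 bases, and ribosomal protein genes have many near-identical pseudogenes, so single values are uncertain, among them those of Rps2 (log2 1.28, SE 0.12) and Rps28 (log2 1.03, SE 0.04). For Rplp0, a commonly used reference gene, the values were 809.5, 721 and 759 CPM in LM1, 772 CPM in LM9 replicate 1, and 1516 and 1485 CPM in LM9 replicates 2 and 3 (log2 difference 0.98, SE 0.04, adjusted p = 5.98e-13). Of 75 nuclear genes of the respiratory chain and ATP synthase, 65 were higher and 4 lower (median 0.38), or 45 higher and 9 lower with the trend removed (median 0.21) and 45 and 7 by total counts. Cox6a1 (log2 1.02, SE 0.06) and Cox5b (log2 1.14, SE 0.12), subunits of cytochrome oxidase, had the largest values, and both have processed pseudogenes that make them uncertain.

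Genes encoded in the mitochondrial DNA went the other way. Of 9 tested, 8 were lower and 1 was higher, with a median of -1.37 (-1.39 with the trend removed). mt-Nd4 had 166, 205 and 198 CPM in LM1, 176 CPM in LM9 replicate 1, and 67.4 and 70.8 CPM in LM9 replicates 2 and 3 (log2 difference -1.45, SE 0.15, adjusted p = 1.66e-07). mt-Nd4l, which shares its transcript with mt-Nd4 and overlaps it, was lower (log2 -2.27, SE 0.23), and so were mt-Nd1 (log2 -1.37, SE 0.12) and mt-Nd5 (log2 -1.3, SE 0.13), all of complex I. The 1 gene that was higher, mt-Co1, took most of the mitochondrial counts, at 3464 to 5009.8 CPM (log2 0.53, SE 0.05). The share of all counts was also taken over every gene whose symbol begins with mt-, a set not limited to the 9 listed. It was 0.556% and 0.563% in LM9 replicates 2 and 3 against 0.393% to 0.462% in LM1 and 0.424% in LM9 replicate 1. Nuclear genome copies of mitochondrial sequence can share these reads, so the split between genes is uncertain. Mitochondrial protein import gave 15 higher and 3 lower of 20 (median 0.41, or 0.24 with the trend removed), with Timm10 (log2 0.87, SE 0.11) and Timm9 (log2 0.83, SE 0.07), the small chaperones of the space between the membranes, the largest.

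The proteasome gave 29 higher and 0 lower of 31 (median 0.36, or 0.41 with the trend removed). Psmc5, an ATPase of the regulatory cap, had the largest value (28.9 to 60.8 CPM, log2 1.07, SE 0.05), and Psmd8, a subunit of the same cap, came next (log2 0.65, SE 0.04). By total counts 20 were higher and 1 lower. Spliceosome genes gave 24 higher and 10 lower of 38, with core proteins such as Snrpf (log2 1.22, SE 0.12) and Snrpe (log2 1.0, SE 0.04) higher and the long transcripts Son (149 to 55.1 CPM, log2 -1.43, SE 0.06) and Srrm2 (log2 -0.69, SE 0.06) lower. Their median went from 0.21 to 0.46 with the trend removed and to 0.0045 by total counts, where 12 were higher and 14 lower. Of 7 long non-coding nuclear RNAs, 4 were higher and 1 lower, the higher ones including Snhg1 (log2 0.61, SE 0.07), Neat1 (87 to 195 CPM, log2 1.16, SE 0.07) and Malat1 (429.5 to 664 CPM, log2 0.60, SE 0.19), and Dleu2 was the lower one (log2 -1.03, SE 0.14). With the trend removed 5 were higher and 0 lower, and Dleu2 was at -0.21 and not called.

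Replication-dependent histone genes, whose mRNAs usually lack a poly-A tail and are thus poorly captured by poly-A libraries, gave 24 higher and 1 lower of 40 (median 1.05, or 0.65 with the trend removed and 1.00 with genes at the floor left out or set at their bound). Hist1h1c, a linker histone, went from 118 to 308 CPM (log2 1.38, SE 0.04), Hist1h2bc from 16.6 to 49.5 CPM (log2 1.58, SE 0.06) and Hist1h2bg from 6.74 to 18.3 CPM (log2 1.46, SE 0.10), while the others were below 10 CPM in both lines. Genes of DNA replication and mitosis gave 18 higher and 9 lower of 33, with a median of 0.20 (21 and 7 with the trend removed, median 0.44, and 15 and 14 by total counts). Mcm3, a subunit of the replicative helicase, had 53.8, 54.2 and 51.9 CPM in LM1, 54.9 CPM in LM9 replicate 1, and 135 and 133 CPM in LM9 replicates 2 and 3 (log2 difference 1.33, SE 0.04, adjusted p = 1.08e-13). The licensing genes Cdc6 (log2 1.27, SE 0.06) and Mcm6 (log2 1.04, SE 0.05) were higher as well, with the cyclins Ccne1 (log2 1.16, SE 0.08) and Ccne2 (log2 1.04, SE 0.19). Cenpf (log2 -1.13, SE 0.08), Kif11 (log2 -0.67, SE 0.06), Ccna2 (log2 -0.61, SE 0.05) and Mki67 (log2 -0.47, SE 0.08, not called with the trend removed) were lower, and Aurka (log2 0.74, SE 0.04) and Cdc20 (log2 0.62, SE 0.05) were higher.

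**Figure D5:**
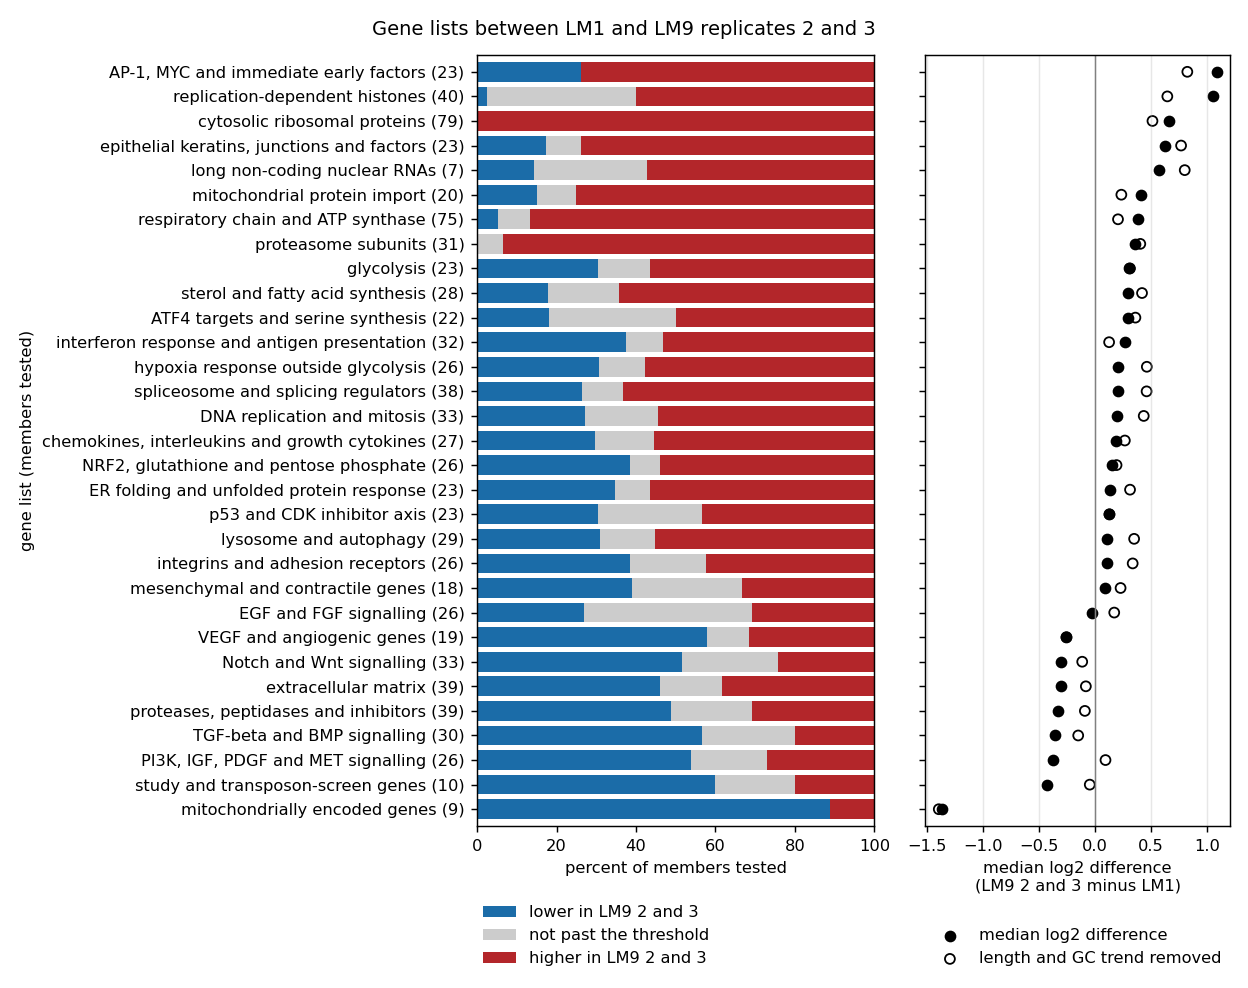
Each row is a gene list with its number of members tested. The left panel gives the percent lower (blue), not past the threshold (grey) and higher (red) in LM9 replicates 2 and 3 against LM1, and the right panel the median log2 difference (filled) and that with the length and GC trend removed (open). Immediate early factors and histones have the highest medians, at 1.09 and 1.05, and mitochondrially encoded genes the lowest, at -1.37.

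Markers of other cell types were checked in the same libraries. Of 8 leukocyte markers, 2 had a row in the files: Cd68, a lysosomal protein that many cells express, had a mean of 459 CPM over the LM1 libraries and of 552 CPM over LM9 replicates 2 and 3, and Csf1r was at 3 counts or fewer in all 6 libraries. Of 5 endothelial markers, 2 had a row, and their sum was 0.213 to 0.398 CPM in LM1, 0.169 CPM in LM9 replicate 1 and 1.14 to 1.33 CPM in LM9 replicates 2 and 3, nearly all of it Pecam1. Of 4 erythroid genes, both with a row were at 3 counts or fewer. Of 6 lung epithelial markers 2 had a row, and their sum was 3.07 to 3.90 CPM in LM1, 5.06 CPM in LM9 replicate 1 and 1.85 to 2.3 CPM in LM9 replicates 2 and 3. Of 5 fibroblast markers, the sum went from 285 to 303 CPM in LM1 to 172 to 182 CPM in LM9 replicates 2 and 3, carried by Pdgfra and Dcn, while Lum and Col3a1 had means of at most 0.219 CPM. LM9 replicate 1 was at 281 CPM. The part of these markers in the differences of matrix genes was not tested. Mammary epithelial markers, with a row for 7 of 10, summed to 858 to 914 CPM in LM1, 913 CPM in LM9 replicate 1 and 1380.0 to 1419 CPM in LM9 replicates 2 and 3. Of these 7, Esr1, the oestrogen receptor, was lower (from 9.72 to 3.29 CPM, log2 -1.55), and the other 6 were called higher. Among the 6, Krt14 was near the floor, at 0.0584 to 0.201 CPM. Gata3 had a log2 difference of only 0.14, smaller in size than the shift of -0.20 that total counts gave all genes.

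The knockout-labelled counterparts of the 2 lines were compared in the same way. Between LM9 Nfib KO and LM1 Nfib KO, with 3 libraries each, limma-voom called 0 genes (178 at an unadjusted p under 0.05) and the edgeR quasi-likelihood test also called 0 (134 at an unadjusted p under 0.05). The median absolute log2 difference was 0.051, against 0.49 between LM1 and LM9 replicates 2 and 3. The difference between these line contrasts was itself tested: without LM9 replicate 1, 10444 of 18246 genes differed (57.2%), and as labelled 0 did by limma-voom (4495 at an unadjusted p under 0.05) and 1 by edgeR. Nfib itself was at 240.04 ± 11.2 CPM with LM9 Nfib KO and 235 ± 5.67 CPM with LM1 Nfib KO (SD, n = 3), against 218 CPM in LM1, and the RNA level does not check small edits. Whether the knockout labels of both lines are right was not tested, and what the 0 and the 10444 genes stand for rests on those labels. Postn was at 2.03 ± 0.382 CPM with LM9 Nfib KO and 1.86 ± 0.111 CPM with LM1 Nfib KO, between the levels of LM1 and of LM9 replicates 2 and 3. Chil1 was at 0.06 ± 0.0403 CPM with LM9 Nfib KO and 0.112 ± 0.0524 CPM with LM1 Nfib KO, below both parental lines. Lilrb4a was at 11.1 ± 0.695 CPM with LM9 Nfib KO and 11.5 ± 0.534 CPM with LM1 Nfib KO, between the levels of LM1 and of LM9 replicates 2 and 3. Notch3 was at 59.2 ± 2.23 CPM with LM9 Nfib KO and 61.5 ± 0.445 CPM with LM1 Nfib KO, above both parental lines. Of the 85 genes named by rule, 0 were called between the knockout-labelled groups, and for 84 the line contrast differed from that of the parental libraries without LM9 replicate 1. Most of the 85 were chosen for their difference in those parental libraries, so the 84 follows largely from that choice.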

How the data were processed

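The tumourspheres were profiled by single-end RNA-seq of stranded poly-A libraries. According to the labels and the methods of the study, the authors aligned reads to mm10 with STAR and counted reads per gene by their 5′ ends over the union of exons with QuasR, and the deposited values are these raw counts. Versions, annotation release, the use of strand and the handling of reads with several places in the genome are not given in the sources used here. Each file lists 18278 genes, 18268 of which matched the GENCODE annotation, and each gene has at least 8 counts in its third-highest library, and genes of lower counts were not analysed here. Aldoa, Ddit3 and Atp5o have 2 identifiers each, and both were counted in their lists.

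Counts were tested with limma-voom 3.58.1 (R 4.3.3), the method that the study names, after TMM scaling in edgeR 4.0.16, in 1 model of the 4 groups with the filterByExpr filter (minimum count 10, minimum total 15). LM9 and LM1 were compared with all 12 libraries and again without LM9 replicate 1. For the second comparison, 18246 genes passed the filter. Alternatives were edgeR, DESeq2 1.42.0, other scalings, filters and weights, the replicate block and leaving out each library. Removal of a loess trend (span 0.3) over exon length and GC content, and the fit with LM9 replicate 1 as its own group, were chosen after seeing the data. Gene lists, named genes and the choice to give results without LM9 replicate 1 were made with earlier results of these data known. The named genes were 8 genes made up of Nfib, Ero1l, Vegfa, Hif1a, Foxp1 and the other NFI genes, genes called as labelled, the 8 largest differences in each direction among protein-coding genes with at least 10 CPM, up to 2 members of each list with at least 5 CPM, and the 5 largest differences in each direction among genes whose libraries do not overlap. Other list members were named after their values were seen. Promoter windows are from RefSeq on GRCm38.p6. Some genes are not reported here.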

Additional observations from a re-analysis of the deposited data

Results flagged for a closer look

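The difference between LM9 and LM1 was not the same in the parental and the knockout-labelled libraries. Without LM9 replicate 1, the difference between the 2 line contrasts (parental minus knockout-labelled, limma-voom, adjusted p under 0.05) was called for 10444 genes and for 84 of the 85 named genes. For genes the study followed and the other NFI genes its log2 size was -0.81 for Nfib, 0.263 for Ero1l, 0.7777 for Vegfa, -0.4194 for Hif1a, -0.7651 for Nfia, 0.1732 for Nfic and -0.3607 for Nfix, and for Anpep it was -2.197. Between the knockout-labelled groups themselves 0 genes were called by limma-voom (178 at an unadjusted p under 0.05) and 0 by edgeR. As labelled, with LM9 replicate 1 kept, the same test called 0 genes by limma-voom (4495 at an unadjusted p under 0.05) and 1 by edgeR. These counts rest on the knockout labels, which were not tested. The cause was not tested.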

How the results depend on the processing

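The comparison as labelled turned on LM9 replicate 1. It called 1 gene, and leaving out 1 library at a time gave 0 to 11995, with 11995 without LM9 replicate 1 and 0 to 2 without another library. DESeq2 called 5772 genes, a minimum mean of 5 CPM 4670, total counts 5226, sample quality weights, which gave that library the lowest weight, 11596, and the fit of only the LM1 and LM9 libraries 0. The cause was not tested. Without LM9 replicate 1, the count of 11995 was 9398 to 12059 under the other tests, scalings, filters and fits and 10822 to 11817 with 1 more library left out, and 3389 with an absolute log2 difference above 1. Where that left 1 LM9 library, it was assumed to vary like the other groups. The difference between the parental and knockout-labelled line contrasts as labelled was 0, 1 by edgeR, 1 by total counts, 10557 with sample quality weights and 0 to 10444 with 1 library left out. Without LM9 replicate 1 it was 10444, 9564 to 10367 with 1 more library left out and 3171 with an absolute log2 difference above 1. The contrast of the knockout-labelled groups was 0 in every alternative run. Replicate numbers did not pair the samples (same-number correlations -0.0673, -0.0448 and -0.0308, 0 of 6 libraries closest to their own number). The replicate block gave 0 genes as labelled, 12059 without LM9 replicate 1 and 10706 for the difference of contrasts. Of the 85 named genes, 82 lost their call with LM9 replicate 1 kept. With the length and GC trend removed, Hif1a turned from lower to 0.04787 (not called) and Foxp1 from -0.08 to 0.4711 (called; -0.2808 and called by total counts), and Nfic, not called before, was called at 0.3309, while 82 kept their direction and side of the threshold. Counting error limits genes near 3 counts per library.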
